A study of Homo sapiens with 6 samples.

Results

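Replication-dependent histone genes were measured in MDA-468.shp53 cells, human breast cancer cells whose name points to the line MDA-MB-468 and to a hairpin RNA that targets p53. The cells spent 8 days in 3-dimensional culture with doxycycline (+DOX, 3 arrays) or with none (-DOX, 3 arrays), with 1 array of each group in each of 3 independent experiments. Doxycycline is the drug commonly used to switch on such a hairpin, and both groups carry the hairpin construct. No arrays of hairpin-free cells given the drug were analysed, so every change is that of drug and hairpin together. The members were the non-control probe sets whose symbol in the authors' workbook starts with HIST1H, HIST2H, HIST3H or HIST4H. There were 75 of them among 28869 non-control probe sets, for 67 gene symbols. Of these, 72 had values on every array, among 28026 probe sets with values, and no filter on dim probe sets was applied. The empty probe sets were 1 each of HIST2H4A, HIST2H2AA3 and HIST2H3A, and each of these symbols had a further probe set with values. By class there were 6 probe sets of H1, 16 of H2A, 21 of H2B, 15 of H3 and 14 of H4.

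Histones package DNA into nucleosomes. A tetramer of H3 and H4 and a pair of dimers of H2A and H2B form the core, and H1 binds the linker DNA between cores. Replication-dependent histone genes are transcribed mainly in S phase, lie in clusters, have no introns as a rule, and give mRNAs that end in a stem-loop bound by SLBP in place of a poly(A) tail. Replication-independent variants such as H2A.Z and H3.3 are made through the cell cycle from genes elsewhere in the genome, with polyadenylated mRNAs. Members of a class are near-identical in sequence, so a probe set can pick up RNA of its relatives and single values are uncertain. The accessions of 7 of the 72 member probe sets named several genes.

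Values are log2 RMA values, and changes are +DOX minus -DOX with the experiment as a term in limma. A probe set fell or rose if its Benjamini-Hochberg adjusted p over all 28026 probe sets was under 0.05. The members were chosen by symbol, but the family was picked on its changes between these same arrays, so the counts and changes of its members are given as a description and no test is made over them. Of the 72 member probe sets, 50 fell and 0 rose, beside 6.63% of all tested probe sets that fell and 6.14% that rose. At an unadjusted p under 0.05 in limma, 60 members were lower and 0 higher, beside 12.4% and 12.1% of all tested probe sets. The methods' paired t-test at the 1% level gave 2 lower members (HIST1H2AM and the chromosome 6 probe set of HIST1H2BK) and 0 higher, beside 2.49% and 1.67% of all tested probe sets, so by that test the members' share was near the background. The median change of the members was -0.78, against -0.01 over all tested probe sets, and single members ranged from -2.81 to 0.03. At least 2-fold lower values were seen in 21 members, beside 0.899% of all tested probe sets. Every +DOX array was below every -DOX array for 55 members, beside 13.5% of all tested probe sets. The number of member calls depended on the arrays: without experiment 3 it was 14, without experiment 2 it was 33 and without experiment 1 it was 51. Over all tested probe sets the shares that fell in these fits were 3.21%, 3.77% and 5.13%. With a trended and robust variance 30 members fell, though the share of all tested probe sets was then higher, 7.35%. HIST1H2BM was among the members that missed the threshold in that fit. In bulk RNA, fewer cells in S phase and less histone RNA per cell cannot be told apart.

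**Figure D1:**
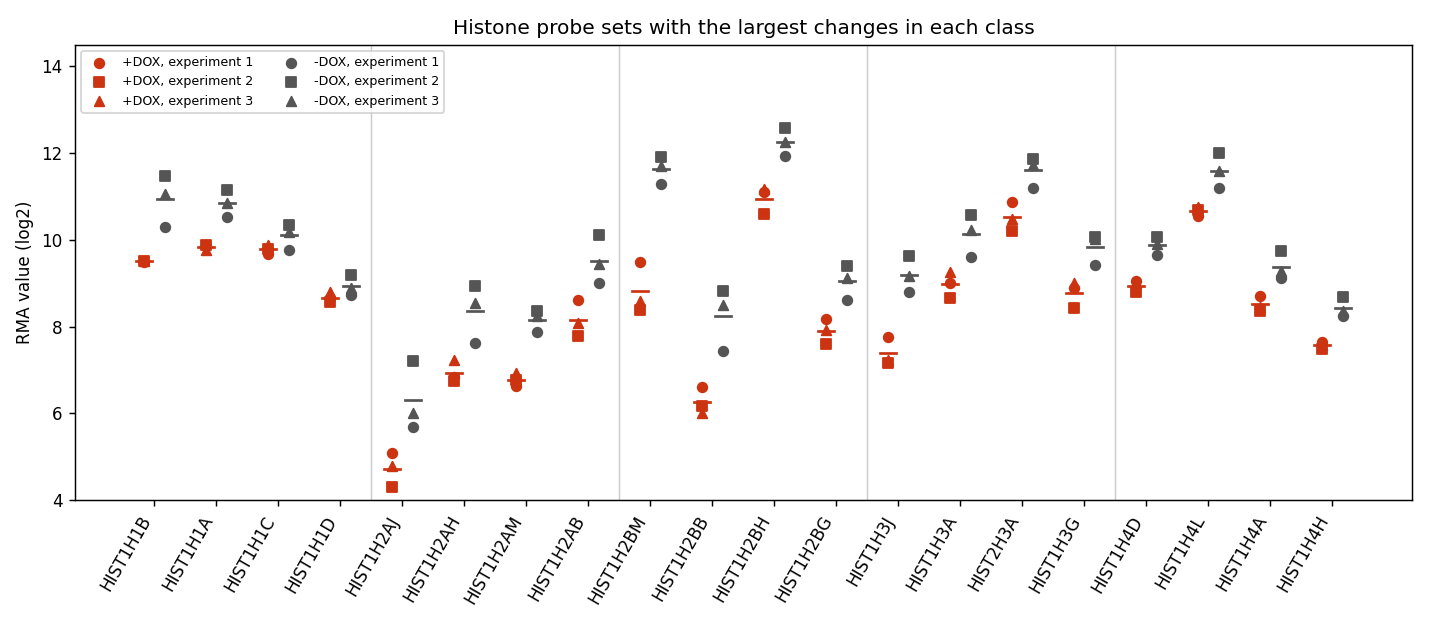
RMA values (log2) of the 4 probe sets with the largest change in each histone class, from left to right H1, H2A, H2B, H3 and H4, in 3 +DOX arrays (red) and 3 -DOX arrays (grey), with marker shapes for experiments and short lines for group means. HIST1H2BM has the widest gap, and HIST1H1C and HIST1H1D are the 2 probe sets whose groups overlap.

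The H2B genes held the largest changes of the family. HIST1H2BM (now H2BC14, NCBI36 chr6:27890801-27891246, + strand) was at 9.50, 8.39 and 8.59 in +DOX cells, against 11.29, 11.90 and 11.70 in -DOX cells of experiments 1, 2 and 3. Its change was -2.81 (SE 0.28), 6.99-fold lower, and its groups were far apart. HIST1H2BB (H2BC3) was at 6.61, 6.18 and 6.02 in +DOX cells, against 7.43, 8.82 and 8.50 in -DOX cells, a change of -1.98 (SE 0.31). HIST1H2BH (H2BC9) was at 11.10, 10.59 and 11.16 in +DOX cells, against 11.94, 12.57 and 12.26 in -DOX cells, a change of -1.31 (SE 0.20). HIST1H2BG (H2BC8) was at 8.18, 7.59 and 7.92 in +DOX cells, against 8.61, 9.40 and 9.12 in -DOX cells, a change of -1.15 (SE 0.22). In these 4 probe sets no +DOX array reached the lowest -DOX array, and the -DOX array of experiment 1 was the lowest of its group. The other 17 H2B probe sets changed by -1.15 to -0.13, and 12 of them fell. The 5 that did not pass were HIST1H2BA, HIST1H2BJ, HIST3H2BB and 2 of the 3 probe sets of HIST2H2BF. Over the class 16 of 21 fell, with a median of -0.82.

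The promoters of HIST1H2BM and HIST1H2BB are shown because these genes had the largest H2B changes, that of HIST1H2BA because this testis H2B gene was dim and did not pass, and that of HIST1H1B because it led the H1 class. The sequences are the 250 bases before the start, 5′ to 3′ on the gene's strand, from RefSeq on GRCh38.p14: chr6:27814772-27815021 (+ strand, HIST1H2BM), chr6:26043714-26043963 (- strand, HIST1H2BB), chr6:25726527-25726776 (+ strand, HIST1H2BA) and chr6:27867589-27867838 (- strand, HIST1H1B). Capitals mark matches on either strand to the TATA motif TATAAA, to CCAAT, which is the site of the factor NF-Y, and to ATTTGCA, the core of the octamer bound by POU2F1 (OCT1) and known from H2B promoters.
HIST1H2BM: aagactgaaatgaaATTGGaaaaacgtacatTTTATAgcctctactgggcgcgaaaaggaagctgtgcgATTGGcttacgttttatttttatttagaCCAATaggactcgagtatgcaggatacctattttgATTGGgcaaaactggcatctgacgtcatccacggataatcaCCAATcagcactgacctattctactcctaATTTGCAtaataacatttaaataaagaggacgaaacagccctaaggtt
HIST1H2BB: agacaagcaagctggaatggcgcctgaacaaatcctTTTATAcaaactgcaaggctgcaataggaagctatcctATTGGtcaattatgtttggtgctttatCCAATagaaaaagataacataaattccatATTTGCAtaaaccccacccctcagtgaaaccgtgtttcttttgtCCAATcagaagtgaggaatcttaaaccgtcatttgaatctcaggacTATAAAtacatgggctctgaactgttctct
HIST1H2BA: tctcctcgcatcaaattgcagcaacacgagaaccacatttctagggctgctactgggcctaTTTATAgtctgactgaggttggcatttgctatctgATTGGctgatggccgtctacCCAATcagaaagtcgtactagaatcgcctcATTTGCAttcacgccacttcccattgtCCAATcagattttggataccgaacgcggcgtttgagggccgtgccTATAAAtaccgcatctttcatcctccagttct
HIST1H1B: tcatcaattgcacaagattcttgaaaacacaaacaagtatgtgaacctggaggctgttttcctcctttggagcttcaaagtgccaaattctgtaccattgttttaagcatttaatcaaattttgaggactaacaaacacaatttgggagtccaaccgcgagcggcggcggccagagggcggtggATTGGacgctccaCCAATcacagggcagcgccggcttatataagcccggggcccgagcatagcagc
The octamer core stood once in each of the 3 H2B promoters and was not found in that of HIST1H1B, which held 2 CCAAT matches. HIST1H2BM had 5 CCAAT matches, against 3 in HIST1H2BB and 3 in HIST1H2BA. The promoter of HIST1H2BA held each of the 3 motifs that were in the promoter of HIST1H2BM. The HIST1H2BA probe set averaged 5.44 in +DOX cells and 5.57 in -DOX cells, a change of -0.13. Whether the motifs have a part in the changes was not tested.

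Among H2A genes, the partners of H2B in the dimer, most probe sets fell. HIST1H2AJ (H2AC14) was at 5.08, 4.30 and 4.79 in +DOX cells, against 5.68, 7.21 and 6.02 in -DOX cells, a change of -1.58 (SE 0.37). HIST1H2AH (H2AC12) was at 6.83, 6.75 and 7.22 in +DOX cells, against 7.63, 8.93 and 8.55 in -DOX cells, a change of -1.44 (SE 0.22). HIST1H2AM (H2AC17) was at 6.64, 6.78 and 6.93 in +DOX cells, against 7.88, 8.37 and 8.24 in -DOX cells, a change of -1.38 with an SE of only 0.10. For this gene the 3 experiments gave changes of -1.24, -1.59 and -1.31, the closest agreement among the named H2A probe sets. HIST1H2AB (H2AC4) was at 8.62, 7.78 and 8.09 in +DOX cells, against 9.00, 10.11 and 9.44 in -DOX cells, a change of -1.35 (SE 0.30). The groups did not overlap in any of these 4 probe sets, though HIST1H2AB changed by -0.38 in experiment 1 and by -2.33 in experiment 2. The other 12 H2A probe sets changed by -1.25 to 0.03, and 7 of them fell. HIST1H2AA, HIST1H2AC, HIST2H2AC, HIST3H2A and 1 of the 2 probe sets of HIST1H2AI did not pass. The class had 11 of 16 lower, with a median of -0.79.

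H3 genes had the lowest class median, -0.94, and 12 of 15 fell. HIST1H3J (H3C12) was at 7.77, 7.16 and 7.22 in +DOX cells, against 8.79, 9.63 and 9.17 in -DOX cells, a change of -1.82 (SE 0.23). HIST1H3A (H3C1) was at 9.01, 8.67 and 9.25 in +DOX cells, against 9.60, 10.58 and 10.23 in -DOX cells, a change of -1.16 (SE 0.22). Both genes had clearly separate groups, and the next 2 differed by about 1 on the log2 scale. HIST2H3A, whose accessions name H3C13, H3C14 and H3C15 together, was at 10.88, 10.20 and 10.47 in +DOX cells, against 11.19, 11.86 and 11.73 in -DOX cells, a change of -1.08 (SE 0.22). HIST1H3G (H3C8) was at 8.88, 8.42 and 9.01 in +DOX cells, against 9.41, 10.07 and 10.01 in -DOX cells, a change of -1.07 (SE 0.19). The other 11 H3 probe sets changed by -1.05 to -0.24. HIST1H3E, HIST1H3F and HIST1H3I did not pass, though all 3 were at an unadjusted p under 0.05.

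H4 genes, which as a rule encode the same protein, had a median change of -0.50, and of -0.32 without experiment 2. HIST1H4D (H4C4) was at 9.04, 8.79 and 9.00 in +DOX cells, against 9.66, 10.07 and 9.90 in -DOX cells, a change of -0.94 (SE 0.13). HIST1H4L (H4C13) was at 10.56, 10.68 and 10.75 in +DOX cells, against 11.20, 11.99 and 11.58 in -DOX cells, a change of -0.93 (SE 0.13). These were the largest H4 changes, and no H4 probe set was 2-fold lower. HIST1H4A (H4C1) was at 8.70, 8.36 and 8.46 in +DOX cells, against 9.13, 9.75 and 9.28 in -DOX cells, a change of -0.88 (SE 0.17). HIST1H4H (H4C8) was at 7.65, 7.49 and 7.58 in +DOX cells, against 8.24, 8.68 and 8.36 in -DOX cells, a change of -0.85 (SE 0.12). In each of these 4 the +DOX arrays lay closer together than the -DOX arrays and below all of them. The other 10 changed by -0.79 to 0.00, and 5 of them fell. HIST1H4C, HIST1H4F, HIST1H4G, HIST1H4J and HIST1H4K did not pass, and the class had 9 of 14 lower.

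Linker histone genes split into 2 that fell and 4 that did not pass. HIST1H1B (H1-5) was at 9.49, 9.52 and 9.52 in +DOX cells, against 10.30, 11.46 and 11.06 in -DOX cells, a change of -1.43 (SE 0.19), 2.70-fold lower. HIST1H1A (H1-1) was at 9.86, 9.89 and 9.76 in +DOX cells, against 10.53, 11.14 and 10.86 in -DOX cells, a change of -1.01 (SE 0.12). Both were nearly level over the +DOX arrays and spread over the -DOX arrays. HIST1H1C (H1-2), a widely expressed somatic linker histone, was at 9.68, 9.78 and 9.89 in +DOX cells, against 9.77, 10.34 and 10.18 in -DOX cells, a change of -0.31 (SE 0.11). HIST1H1D (H1-3) was at 8.67, 8.56 and 8.80 in +DOX cells, against 8.72, 9.20 and 8.90 in -DOX cells, a change of -0.27 (SE 0.13). Their groups overlapped. HIST1H1E (H1-4), the brightest member, averaged 13.33 in +DOX cells and 13.55 in -DOX cells and changed by -0.22. The testis gene HIST1H1T (H1-6) was dim, at 5.20 and 5.25, and changed by -0.05. The class median was -0.29, and -0.15 without experiment 2.

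Genes known for expression in the male germ line stood at the small end. This grouping was made after the values were seen. HIST1H2AA changed by 0.03 (SE 0.08), HIST1H2BA by -0.13 (SE 0.09), and HIST1H1T by -0.05 (SE 0.08), and none of them passed. These 3 were dim, with means in +DOX and -DOX cells of 5.99 and 5.96, 5.44 and 5.57, and 5.20 and 5.25. The array medians were 7.45 to 7.56. Whether these 3 genes were expressed at all was not tested, so their small changes may not describe a response. HIST3H3, which encodes the testis H3 histone H3t, was at 7.40, 7.31 and 7.43 in +DOX cells, against 7.74, 7.73 and 7.69 in -DOX cells, and fell by 0.34 (SE 0.08). Without these 4 probe sets, 49 of 68 members fell, with a median of -0.81. HIST1H4G, not in this grouping, changed by 0.00.

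Where 1 gene symbol had several probe sets, they did not always move alike. HIST1H2AI had a dim probe set with a mean of 3.74 in both groups and a change of 0.00, and a brighter one with a mean of 8.72 ± 0.26 in +DOX cells and 9.98 ± 0.47 in -DOX cells (SD, n = 3 each) and a change of -1.25 (SE 0.23). The accessions of the brighter one also name the neighbouring H3 gene H3C10. The 2 probe sets of HIST1H2BK, placed on chromosomes 6 and 21, changed by -0.63 and -0.68. HIST2H2BF changed by -0.92, -0.40 and -0.21 in 3 probe sets that lie apart on chromosome 1. HIST2H3D changed by -0.96 and -0.51 in 2 that also lie apart there. Whether probe sets of 1 symbol at different places read the same gene is not settled here. Split at the median of the mean over all 6 arrays, 27 of the 36 brighter members and 23 of the 36 dimmer members fell, with medians of -0.85 and -0.76.

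The size of the fall differed between experiments for nearly all members. The median change was -0.31 in experiment 1, -1.20 in experiment 2 and -0.79 in experiment 3, against 0.01, 0.02 and -0.06 over all tested probe sets. Experiment 1 gave the highest change of the 3, which is the smallest fall or a rise, for 61 of 72 members (84.7%). The same held for 922 of the 1809 other probe sets that fell (51.0%) and for 35.8% of all tested probe sets. The difference lay on both sides: 66 members had their lowest -DOX value in experiment 1 and 58 their highest -DOX value in experiment 2, and 50 had their lowest +DOX value in experiment 2. The median member value was 8.38, 7.93 and 8.12 on the +DOX arrays and 8.76, 9.51 and 9.19 on the -DOX arrays of experiments 1, 2 and 3. The median SD of a member over 3 arrays was 0.18 in +DOX cells and 0.31 in -DOX cells, and it was larger in -DOX cells for 59 of 72. Over all tested probe sets it was 0.10 in +DOX cells and 0.12 in -DOX cells, and larger in -DOX cells for 16282 of 28026. Members kept much of their order of change. Across the 72 probe sets, which share arrays within an experiment and near-identical sequences, changes correlated at r = 0.714 between experiments 1 and 2, 0.787 between 1 and 3, and 0.894 between 2 and 3. The rank correlations (Spearman) were 0.634, 0.705 and 0.887 in the same order. In all 3 experiments 65 members were lower, beside 23.0% of all tested probe sets.

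**Figure D2:**
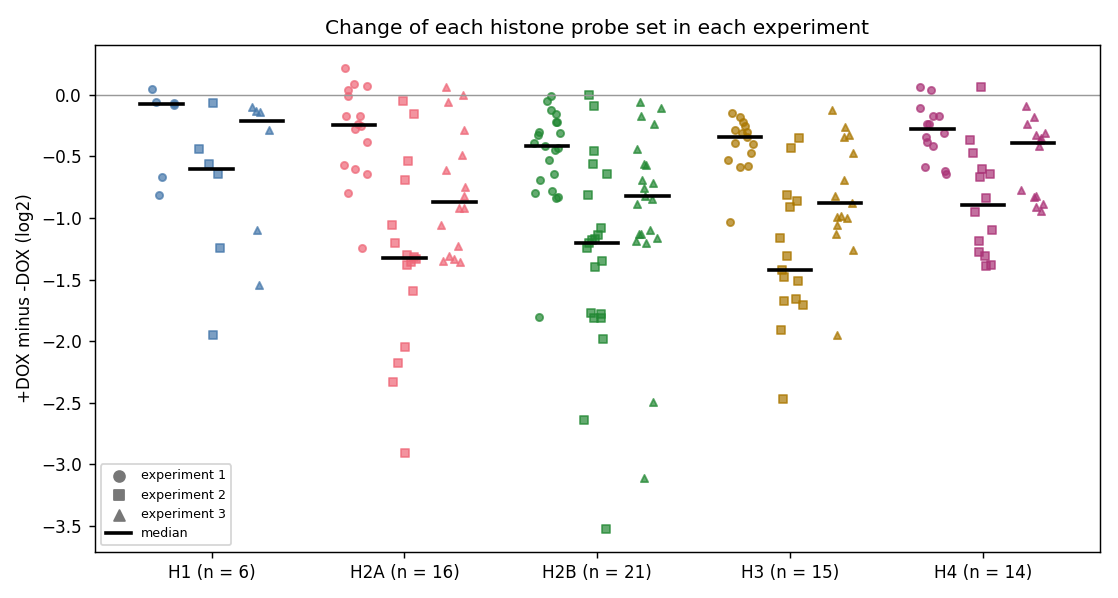
Change (+DOX minus -DOX, log2) of each of the 72 member probe sets in each experiment, by histone class, with black bars at the class medians. In each class the bar of experiment 1 is nearest to 0 and that of experiment 2 farthest from it, and H1 has the smallest median in every experiment.

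Set side by side, the class medians in experiments 1, 2 and 3 were -0.42, -1.20 and -0.82 for H2B, -0.25, -1.32 and -0.87 for H2A, -0.34, -1.42 and -0.88 for H3, -0.28, -0.90 and -0.40 for H4, and -0.07, -0.60 and -0.22 for H1. H1 was nearest to 0 in each experiment, though its median rests on 6 probe sets, among them the brightest member and the dim HIST1H1T. Among H2A, H2B and H3, H2B was farthest from 0 in experiment 1 and H3 in experiments 2 and 3. Their medians over all arrays lay between -0.94 and -0.79. The SD of these class medians between experiments, 0.39 to 0.54, does not measure a class difference, since the classes moved together between experiments. H4 was next to H1 in experiments 2 and 3 but not in experiment 1. No test of a difference between classes was made.

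By position, with members joined where neighbouring starts were at most 250 kb apart, there were 10 groups, of which 5 held at least 3 probe sets with values (NCBI36 coordinates). The largest, chr6:26125227-26393741, held 31 probe sets, of which 21 fell, with a median of -0.85. The second on chromosome 6, chr6:27883191-27970933, held 17, of which 13 fell, with a median of -1.02, and includes HIST1H2BM, HIST1H3J, HIST1H2AJ and HIST1H1B. In the third, chr6:27199608-27223325, 4 of 5 fell, with a median of -0.71. The HIST2 cluster, chr1:148048739-148126090, had 8 of 9 lower and a median of -0.83, while HIST3, chr1:226679162-226714794, had 1 of 3 lower and a median of -0.22 (-0.34 without experiment 1). The pair HIST1H2AA and HIST1H2BA lay apart on chromosome 6 and neither fell, and HIST4H4, alone on chromosome 12, fell by 0.45 (SE 0.10). Within the largest cluster all 8 H2B probe sets fell, as did 5 of 7 H3, 5 of 8 H4, 2 of 3 H2A and 1 of 5 H1, so members of 1 cluster did not all fall. Of the 3 further probe sets with values inside these clusters, which carry no histone symbol, 2 fell: HFE, an iron regulator, by 0.51 (SE 0.09), and 1 without a symbol by 0.70 (SE 0.11). The third, in the HIST2 cluster and also without a symbol, changed by -0.83 (SE 0.23) and did not pass (limma adjusted p = 0.0541). All 3 were lower in all 3 experiments, and what the 2 without a symbol transcribe is not settled here.

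**Figure D3:**
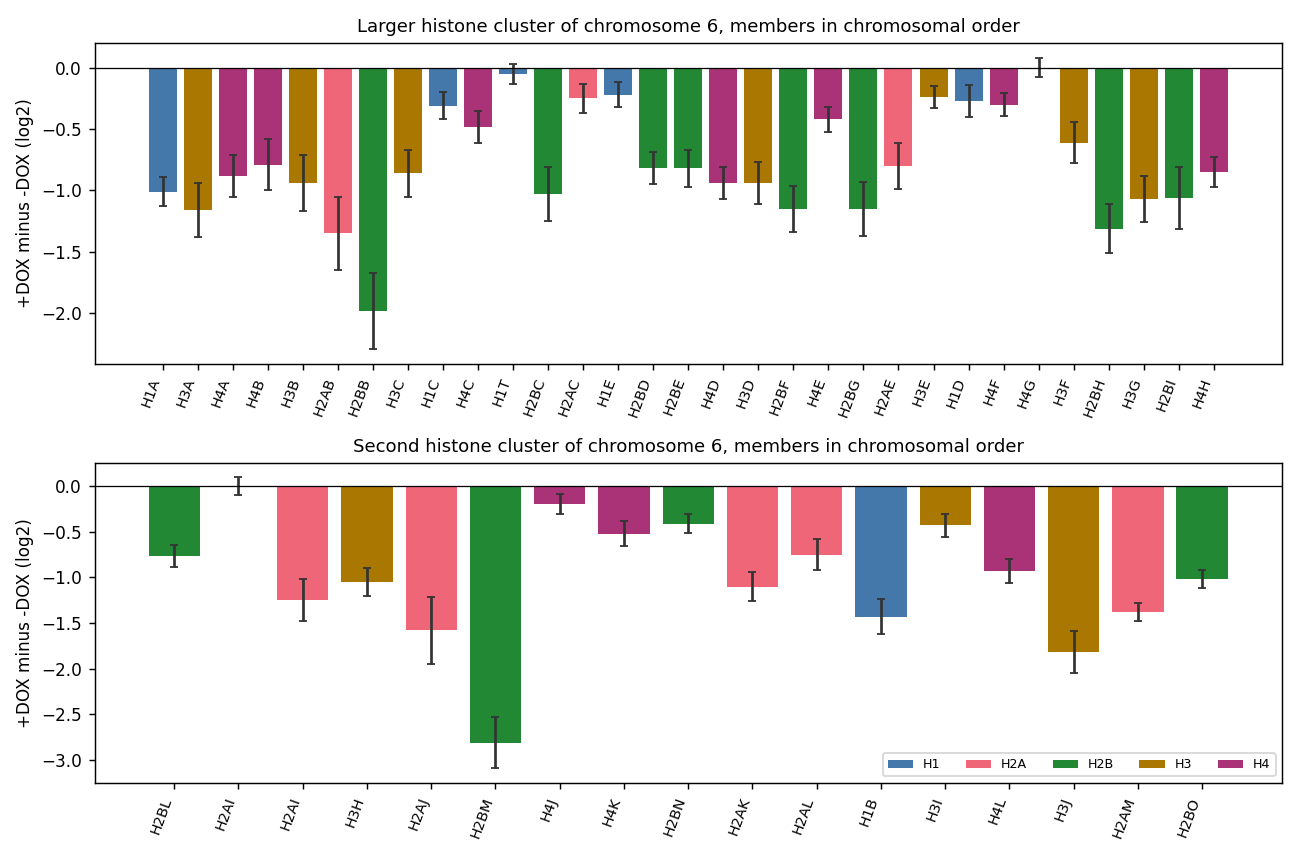
Change (+DOX minus -DOX, log2, bars) with its moderated SE (error bars) for members of the larger (31 probe sets, top) and the second (17 probe sets, bottom) cluster of chromosome 6, in chromosomal order and coloured by class, with HIST1 left off the names. Near-zero bars such as H1T and H4G stand among low ones, and H2BM reaches -2.81.

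Many H2A and H2B genes lie head to head and share the stretch between their starts. Taking members on opposite strands with their 5′ ends within 1000 bases, 12 combinations of an H2A with an H2B probe set were found, a grouping made after the values were seen. Both probe sets fell in 6 of them. HIST1H2AJ and HIST1H2BM, which changed by -1.58 and -2.81, are such a pair, with 303 bases between them. HIST1H2AM and HIST1H2BO changed by -1.38 and -1.02. In contrast HIST1H2BC fell by 1.03 whereas its partner HIST1H2AC was at -0.25 and did not pass. The H2B probe set had the lower change in 6 combinations and the H2A probe set in the other 6. HIST1H2BL (-0.76) was counted on each side, with the dim HIST1H2AI probe set (0.00) and with the brighter one (-1.25). HIST1H2AK and HIST1H2BN overlap in position, so no stretch lies between them. The median difference in size within a combination was 0.42, against 0.49 over all 336 combinations of an H2A with an H2B member, and no test was made of this difference.

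Promoters were in the RefSeq table for 56 of the 61 member genes that a probe set named alone. A gene with several such probe sets was given the lowest of their changes. HIST2H2BF thus entered with -0.92, and HIST1H2BK with the -0.68 of its chromosome 21 probe set. Those of H2AC12, H3C11, H3C12, H4C1 and H4C3 were not used here. In windows of 250 bases before to 50 after the start, on both strands, the octamer core was in 14 of 18 H2B and 10 of 13 H2A promoters, in 1 of 10 H3 promoters and in no H4 or H1 promoter, beside 4.20% of the 35116 promoters in the table. Head-to-head genes share these windows in part. CCAAT was in 50 of 56 member promoters (89.3%), in 3 of 9 H4 promoters, and in 34.6% of all promoters. TATAAA was in 38 member promoters (67.9%), beside 11.5% of all. The 14 H2B genes with the octamer core had a median change of -1.02 (range -2.81 to -0.13) and the 4 without it -0.58 (range -0.82 to -0.17), so the ranges overlapped. Over all member promoters, the median change was -0.80 with TATAAA and -0.80 without it. HIST1H2BA and HIST1H2AA, which carry TATAAA, were dim and changed by -0.13 and 0.03. The part of the motifs in the changes was not tested. A match of letters is no evidence that a factor binds there.

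Genes of DNA replication had a lower median change than all tested probe sets, nearer to 0 than that of the histone genes. Of 44 measured, 22 fell and 0 rose in limma (31 lower and 1 higher at an unadjusted p under 0.05, beside 12.4% and 12.1% of all tested probe sets, and 4 and 0 by the methods' t-test at the 1% level, beside 2.49% and 1.67%), with a median of -0.38. Each of the following adjusted p is from limma. GINS2, a subunit of the replicative helicase complex, averaged 10.03 in +DOX cells and 11.02 in -DOX cells (change -0.99, SE 0.09, adjusted p = 0.00100). POLE2, a subunit of DNA polymerase epsilon, changed by -0.96 (SE 0.09, adjusted p = 0.00124). ORC1, of the origin recognition complex, changed by -0.85 (SE 0.08, adjusted p = 0.00131), and cyclin A2 (CCNA2) by -0.88 (SE 0.09, adjusted p = 0.00186). Thymidine kinase TK1 and the DNA methylation cofactor UHRF1 changed by -1.13 (SE 0.12) and -1.30 (SE 0.15). The medians of this list in experiments 1, 2 and 3 were -0.30, -0.50 and -0.39, and experiment 1 was again nearest to 0. Their part in the histone changes was not tested.

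**Figure D4:**
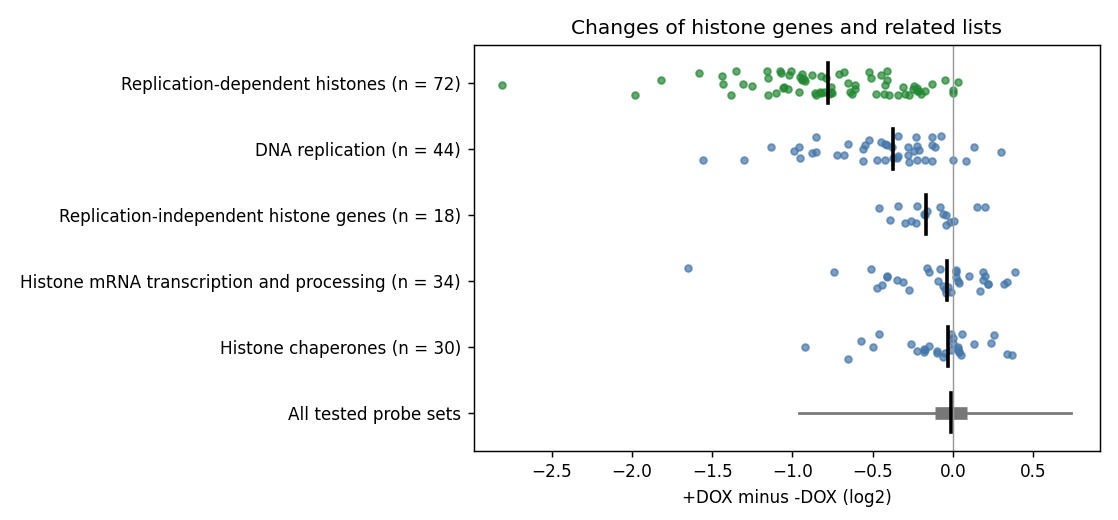
Change (+DOX minus -DOX, log2) of the 72 member probe sets and of 4 gene lists (1 point per probe set or gene, black bars at medians), above the range of all tested probe sets (thick line 25th to 75th percentile, thin line 1st to 99th). The members have the lowest median, -0.78, followed by DNA replication with -0.38.

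Replication-independent histone genes mostly did not pass. Of 18 measured, 2 fell and 0 rose in limma (6 lower and 0 higher at an unadjusted p under 0.05, and 0 and 0 by the methods' t-test at the 1% level, beside the same shares of all tested probe sets), with a median of -0.17. H2AZ2 (H2AFV), a form of H2A.Z, was at 10.93 in +DOX cells and 11.39 in -DOX cells (change -0.46, SE 0.10, limma adjusted p = 0.0195). H2AX, whose mRNA is made in both stem-loop and polyadenylated form and whose protein marks DNA breaks when phosphorylated, changed by -0.39 (SE 0.10, limma adjusted p = 0.0493), and did not pass without experiment 2 (adjusted p = 0.276) or experiment 3 (adjusted p = 0.156). H2AZ1 changed by -0.22 and the H3.3 genes H3-3A and H3-3B by -0.30 and -0.16, none of which passed. The H3-3A value comes from a probe set whose place in the genome was not checked, so it may read a copy elsewhere. H2AFJ, the gene of the variant H2A.J, changed by -0.34 and did not pass.

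Most factors that make and process histone mRNA did not pass, though the share that fell was above the background. Of 34 measured, 7 fell and 1 rose in limma, beside 6.63% and 6.14% of all tested probe sets, with a median of -0.04. At an unadjusted p under 0.05 in limma, 9 were lower and 6 higher, beside 12.4% and 12.1% of all tested probe sets. The methods' t-test at the 1% level gave 1 lower and 1 higher, beside 2.49% and 1.67%. Cyclin E2 (CCNE2) changed by -1.65 (SE 0.13, limma adjusted p = 0.00074), cyclin E1 (CCNE1) by -0.74 (SE 0.11, limma adjusted p = 0.00560) and their partner CDK2 by -0.51 (SE 0.09, limma adjusted p = 0.00975). Cyclin E with CDK2 is known to phosphorylate NPAT, the coactivator of histone genes, and NPAT itself was at 9.78 in +DOX cells and 9.81 in -DOX cells (change -0.03, SE 0.09). E2F1 changed by -0.41 (SE 0.09), and CSTF3 and CSTF2, of the cleavage stimulation factor, by -0.47 (SE 0.09) and -0.41 (SE 0.08). The stem-loop binding protein SLBP was at 10.29 in +DOX cells and 10.32 in -DOX cells (change -0.04, SE 0.08), and the U7 particle proteins LSM10 and LSM11 changed by -0.01 and 0.02. POU2F1 changed by -0.35 (SE 0.11) and did not pass, and HINFP, the factor of H4 promoters, by 0.02. CPSF2, of the complex that cuts histone pre-mRNA, was the gene that rose, by 0.34 (SE 0.08), and no gene of the list rose without experiment 2 or experiment 3. List genes named here without passing, and CPSF2 and NPM3, were chosen for their role after their values were seen. Without experiment 3 the falls were 2 in this list, 2 among the chaperones and 12 among DNA replication genes, and without experiment 2 they were 2, 2 and 13. Over all tested probe sets the shares that fell were 3.21% without experiment 3 and 3.77% without experiment 2.

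Of 30 histone chaperone genes 5 fell and 2 rose in limma, beside 6.63% and 6.14% of all tested probe sets, with a median of -0.03. The share that rose was thus near the background. At an unadjusted p under 0.05 in limma, 6 were lower and 4 higher, beside 12.4% and 12.1% of all tested probe sets. The methods' t-test at the 1% level gave 1 lower and 2 higher, beside 2.49% and 1.67%. ASF1B, a carrier of new H3 and H4 known for expression in dividing cells, was at 10.34 in +DOX cells and 11.25 in -DOX cells (change -0.92, SE 0.11, limma adjusted p = 0.00255). Its paralogue ASF1A changed by 0.05. HJURP, the chaperone of the centromere histone CENPA, changed by -0.57 (SE 0.09), MCM2, a helicase subunit that also binds H3 and H4, by -0.65 (SE 0.12), ANP32E, a chaperone of H2A.Z, by -0.50 (SE 0.10) and NASP, which keeps a reserve of soluble H3 and H4, by -0.46 (SE 0.08). IPO4, which imports H3 and H4 into the nucleus, rose by 0.34 (SE 0.08), and NPM3 rose by 0.37 (SE 0.09). With any 1 of the 3 experiments left out, 0 chaperone genes rose in limma, and the adjusted p of IPO4 was 0.0973 to 0.136. The large subunits of chromatin assembly factor 1, CHAF1A and CHAF1B, changed by -0.17 and -0.26 and did not pass.

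Over all tested probe sets, correlations between a +DOX and a -DOX array were 0.983 to 0.991 and those within a group 0.991 to 0.997, and array medians lay between 7.45 and 7.56. The 10 epithelial markers, among them KRT5, KRT18, EPCAM and EGFR, had group means of 10.60 to 13.23 in +DOX cells and 11.09 to 13.22 in -DOX cells, and KRT8 (-0.63) and KRT14 (-0.48) fell. The 6 fibroblast markers had group means of 4.17 to 8.80 in +DOX cells and 4.07 to 8.82 in -DOX cells, and 0 passed in limma, with 0 at an unadjusted p under 0.05 and 0 by the methods' t-test. The 6 leukocyte markers ranged from 4.15 (PTPRC) to 10.58 (CD14) in +DOX cells and from 4.23 to 11.23 in -DOX cells, and CD14 fell by 0.65. The value of a probe set depends on its probes, so these levels give only a rough check of the label. Their part in the histone changes was not tested.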

How the data were processed

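RNA of 6 cultures was hybridised to Affymetrix GeneChip expression arrays. The deposited values are log2 values made by the authors with the Robust Multichip Average, per the design text of the series, and the submitters' processing notes name R 2.11.1 and RMA. RMA brings arrays to a common distribution, so changes are relative to the other probe sets. The authors' workbook supplied symbols, accessions and coordinates. Its coordinates match NCBI build 36 by the accession versions in the file. No read depth exists for arrays, and their number limits the precision.

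Of 33297 probe sets, 4428 controls were left out, and 28026 of the others had values. +DOX and -DOX arrays were compared with limma 3.58.1 in R 4.3.3, in a linear model with terms for group and experiment, Benjamini-Hochberg adjustment over 28026 probe sets and a threshold of 0.05. The pairing comes from the design text, which names independent experiments and pairs the arrays in its t-test. Deviations from the group means correlated at 0.482, 0.165 and 0.0993 within experiments 1, 2 and 3. With 3 pairs, the smallest p of an exact two-sided sign-flip test is 0.25. The procedure was tested on simulated data.

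The members and the gene lists were chosen with earlier results of these data known. Named members are the 4 with the largest change in each class. Named list genes are up to 6 that passed, taken by p, and others are marked as chosen later. List genes were matched through the RefSeq gene table of GRCh38.p14, as were the current names of all 72 member probe sets, and a list gene was read from its brightest probe set. The positions of these list probe sets were not checked against the genes, so some may read a copy elsewhere. For the lists, 18 of 21 replication-independent histone genes and every gene of the other lists were measured. Alternatives were no experiment term, a trended and robust variance, equal array medians, a further quantile normalization, the dimmest 25% left out, probe sets with a symbol only, the methods' paired t-test, each experiment left out, and members defined by current name, by 1 probe set per gene or without pseudogenes. Some genes, the hairpin's target among them, are not reported here.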

Additional observations from a re-analysis of the deposited data

How the results depend on the processing

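All median changes, of the members, of the 5 classes and of the 5 clusters with at least 3 probe sets, kept their sign in every alternative that gives a median. Leaving out 1 experiment, which by construction stays within the spread between experiments, moved the median of the members to between -1.02 and -0.55. It moved that of H1 from -0.29 to -0.15 and that of H4 from -0.50 to -0.32 (both without experiment 2), and that of the HIST3 cluster from -0.22 to -0.34 (without experiment 1). Of 72 members, 50 fell in the reported fit, 35 without the replicate block (the experiment term), 46 with equal array medians, 41 with a further quantile normalization, 30 with the trended and robust variance and 56 among probe sets with a symbol only. Among all probe sets tested in each setting the shares that fell were, in the same order, 6.63%, 4.64%, 5.58%, 6.4%, 7.35% and 9.32%. Leaving out 1 experiment gave 14 to 51, the lowest without experiment 3. With the methods' t-test at the 1% level 2 fell, and 0 after Benjamini-Hochberg adjustment, where 15 were at an unadjusted p under 0.05. No member rose in any of these settings. Defining members by current name, by 1 probe set per gene or without pseudogenes moved no count and no median by over 1.5 times. The 35 members called without the block were all among the 50.

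Of the replication-independent histone genes, 2 fell in the reported fit, 1 without the replicate block and 1 with equal array medians, and 0 to 3 with 1 experiment left out. For histone mRNA transcription and processing the falls with 1 experiment left out were 2 to 6, and the rises 0 to 1, with 2 rises under the trended and robust variance, 2 without the dimmest 25% and 2 among probe sets with a symbol. For the chaperones these falls were 2 to 5 and the rises 0. For DNA replication the falls were 12 to 22, and 1 gene rose with the trended and robust variance and 1 among probe sets with a symbol. The further probe sets in the clusters, without a histone symbol, had 0 to 2 falls with 1 experiment left out, 1 among probe sets with a symbol and 3 without the dimmest 25%. Over all tested probe sets, leaving out 1 experiment gave 899 to 1437 falls and 456 to 1416 rises, and 1109 rose without the replicate block.

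The methods' t-test at the 1% level gave 0 falls among replication-independent histones, 1 in transcription and processing, 1 among chaperones, 4 in DNA replication and 0 among the further probe sets in the clusters, and over all probe sets 697 falls and 468 rises. After adjustment each of these counts and each count of rises was 0, with 4449 probe sets at an unadjusted p under 0.05. The 4 named members of each class and the list genes taken by p kept their sign under the alternatives. Genes chosen later for their role were not part of this check. Of the values checked, 327 kept their side of the threshold and 112 no longer passed, mostly under the t-test or without experiment 3. The causes were not tested.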
